A study of Mus musculus with 32 samples.

Results

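The DNA methylation writers and erasers described here are 8 genes, chosen by name: the methyltransferases Dnmt1, Dnmt3a and Dnmt3b, the methyltransferase cofactor Dnmt3l, the hemimethylated-DNA reader Uhrf1, and the dioxygenases Tet1, Tet2 and Tet3. Each symbol was matched to an Ensembl gene by the GENCODE mouse annotation, and all 8 were found among the 85539 genes of the juvenile transcript table and the 85537 of the adult table. The smaller juvenile gene table of 20368 genes, each with at least 3 TPM (a transcript level per length, scaled to the same total in each library) in at least 1 mouse, held 7 of them; Dnmt3l never reached 3 TPM, and its values are sums of its transcripts.

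RNA was sequenced from germ cell preparations of single male C57BL/6J mice, 3 at 8 dpp (days post partum) and 5 at each of 10, 12, 14, 16 and 18 dpp, a span in which the first wave of spermatogenesis moves from spermatogonia through meiotic prophase. In addition, 4 samples of pachytene and diplotene spermatocytes enriched by sedimentation were each pooled from 6 mice of 9 weeks. Further 8 dpp samples were omitted by the authors, who found them poorly matched to others of that age in cytology and RNA-seq. All animals were of 1 strain, and the labels name no transgene or treatment. TPM keeps no read counts, so depth is unknown here, and the spread between mice is the error given throughout as SD.

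Cytosine methylation is copied after replication by DNMT1, which UHRF1 brings to hemimethylated CpG sites. DNMT3A and DNMT3B set new methylation, with the catalytically inactive DNMT3L as cofactor in the germ line, and the TET enzymes oxidise 5-methylcytosine as the start of demethylation. In the male germ line, most methylation is laid down in fetal prospermatogonia, and DNMT and TET transcripts are carried by spermatogonia and by somatic cells of the tubule as well.

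The labelled cell types were compared with marker genes. The germ cell genes Ddx4 and Dazl summed to between 378 and 480 TPM at 8 dpp and between 685 and 751 TPM at 18 dpp. Ddx4 was at 127 ± 12.8 and 385 ± 36.8 TPM at these ages and Dazl at 319 ± 47.0 and 331 ± 51.8 TPM (SD, n = 3 and 5). In adult samples they were at 573 ± 16.4 and 30.9 ± 4.63 TPM (SD, n = 4). The 7 pachytene markers summed to between 35.0 and 43.7 TPM at 8 dpp, between 2530 and 4680 TPM at 18 dpp and between 9790 and 10000 TPM in the adult samples, with Pgk2 and Pou5f2 at 0 at 8 dpp. Hspa2 held 35.0 ± 3.35 TPM of the 8 dpp sum (SD, n = 3). Hist1h1t stayed at 0.398 ± 0.421 TPM at 18 dpp (SD, n = 5), where each other pachytene marker had a mean of at least 53.3 TPM. The 8 Sertoli cell markers were all detected in samples labelled germ cells. They summed to between 6640 and 7500 TPM at 8 dpp, of which Clu took 5380 ± 345 TPM (SD, n = 3), to between 3340 and 4350 TPM at 18 dpp and to between 327 and 481 TPM in the adult samples. The 5 peritubular markers ran from between 1050 and 1160 TPM at 8 dpp through between 524 and 1030 TPM at 18 dpp to between 5.57 and 10.7 TPM in adult samples. The 8 spermatogonial markers summed to between 925 and 1060 TPM at 8 dpp and between 797 and 1010 TPM at 18 dpp. Under that sum, Dmrtb1 was at 54.9 ± 5.8 TPM in the youngest mice and 420.0 ± 191 TPM in the oldest, while the other 7 had lower means in the oldest, such as Stra8 with 209 ± 39.0 and 86.7 ± 14.0 TPM, Sohlh1 with 81.9 ± 6.33 and 32.0 ± 5.95, Zbtb16 with 22.7 ± 1.56 and 9.04 ± 0.751 and Kit with 49.2 ± 3.77 and 27.0 ± 4.55 (SD, n = 3 and 5). Their sum in adult samples was between 1360 and 1530 TPM, of which Dmrtb1 held 1430 ± 70.8 TPM (SD, n = 4), while Uchl1 was at 22.5 TPM and Zbtb16, Gfra1, Kit, Stra8, Sohlh1 and Sohlh2 lay between 0.485 and 2.74 TPM. Early prophase markers lay between 218 and 320 TPM in the youngest mice and between 754 and 938 TPM in the oldest, and spermatid markers between 2.48 and 5.67 and between 6.13 and 17.0 TPM. In the same order, Leydig cell markers lay between 175 and 198 and between 169 and 472 TPM, macrophage markers between 27.8 and 39.1 and between 46.6 and 82.3 TPM, endothelial markers between 50.2 and 56.6 and between 31.8 and 65.2 TPM, and red blood cell markers between 243 and 681 and between 250 and 367 TPM. In adult samples the spermatid sum was between 872 and 1190 TPM, and those of Leydig, macrophage, endothelial and red blood cells reached at most 270.0, 3.64, 3.09 and 8.59 TPM. In the Sertoli list, Gata1 (43.7 ± 4.13 and 68.5 ± 12.2 TPM at 8 and 18 dpp) and Rhox5 (36.6 ± 7.85 and 68.4 ± 23.3) had higher means at 18 dpp. The other Sertoli markers had lower means, though Amhr2 changed little (481 ± 25.1 and 456 ± 72.8). Acta2 held most of the peritubular sum (852 ± 40.7 and 527 ± 198), and in that list only Des had a higher mean (9.97 ± 2.14 and 11.9 ± 3.51) (SD, n = 3 and 5). The Sertoli and peritubular sums and 7 of the 8 spermatogonial markers were lower at 18 than at 8 dpp, as were most of the genes below, and their part in those results was not tested. From the RNA of such bulk samples alone, fewer cells of a type and less RNA per cell cannot be told apart. The authors staged germ cells of each mouse by antibody labelling on aliquots of these preparations, and counted mostly germ cells. Those counts were not used here.

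Of the 7 genes tested, 6 fell and Uhrf1 rose between 8 and 18 dpp. The question was how transcripts of each enzyme changed over the first wave of meiosis, and each age pair was tested with limma on log2(TPM + 1) over all 20368 genes, with all 6 ages in 1 model. Of all genes, 68.2% were called at an adjusted p under 0.05, 36.3% lower and 31.8% higher at the later age, so a call in either direction was common in this comparison. Of these 20368 genes, 15025 are Ensembl genes and the others are mainly long non-coding RNA genes, whereas the 7 genes tested are protein-coding. Shares called among protein-coding genes alone were not computed and may differ. The 7 genes also differed among the 6 ages in the F test, as did 77.6% of all genes. For all 7, the ranges of the 8 dpp and the 18 dpp mice did not overlap, which held for 61.0% of all genes.

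**Figure D1:**
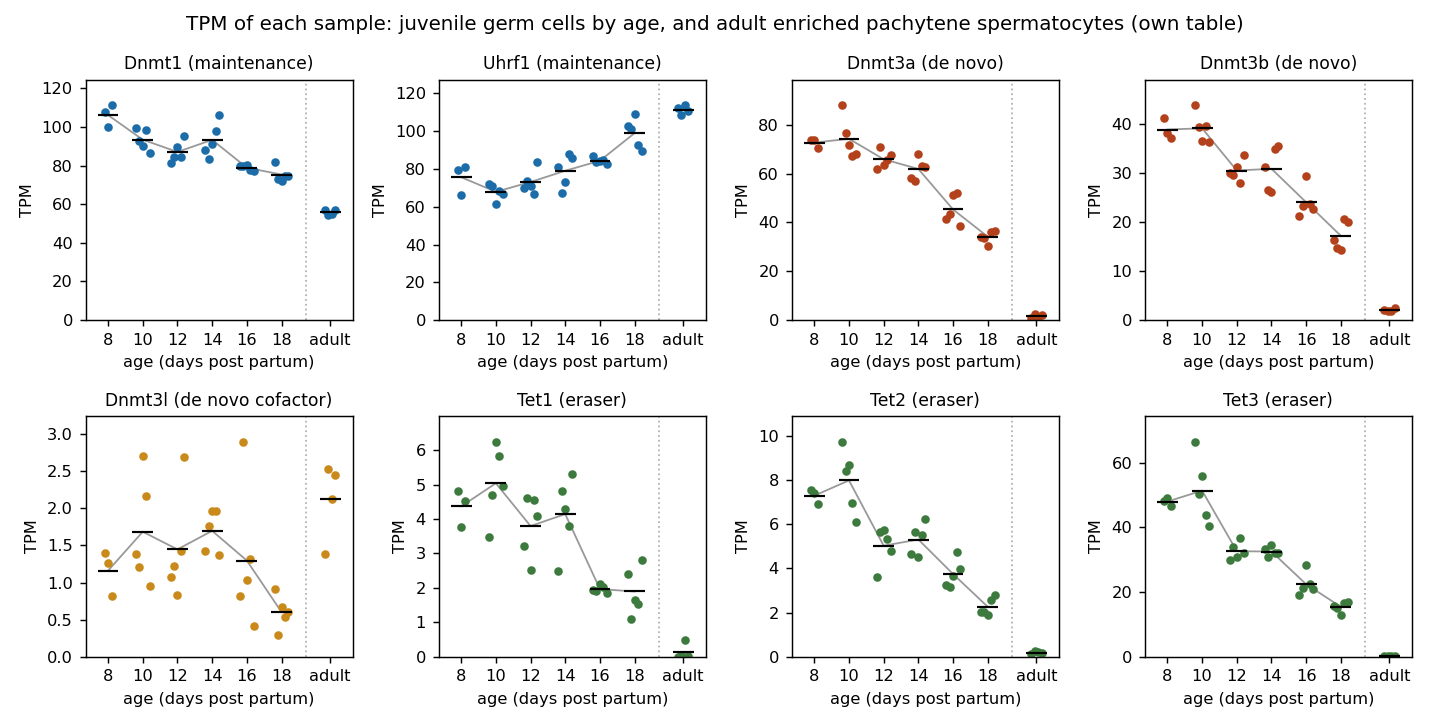
TPM (linear axis from 0) of each of the 8 genes in every sample, by age in days post partum, with the adult enriched spermatocytes from a table of their own right of the dotted line; points are samples and black lines group means. Dnmt3a, Dnmt3b and the 3 Tet genes were lower at 18 than at 8 dpp and at or below 2.51 TPM in adult samples, where Dnmt1 stayed between 54.4 and 57.0 TPM and Uhrf1 between 109 and 114 TPM.

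Among the maintenance genes, Dnmt1 (ENSMUSG00000004099, chr9:20907209-20959888, minus strand, GRCm38), the enzyme that copies methylation to the new strand, held 108, 99.7 and 111 TPM in the 3 mice of 8 dpp. At 18 dpp its values were 82.1, 73.0, 72.0, 74.8 and 74.8 TPM. Every 18 dpp mouse was below every 8 dpp mouse, and 1 of the 18 dpp mice lay above the other 4. The change was a log2 fold change of -0.49 (SE 0.068, limma adjusted p = 4.45e-07), from a mean of 106 ± 5.83 TPM (SD, n = 3) to 75.3 ± 3.94 TPM (SD, n = 5). At 10, 12, 14 and 16 dpp, in that order, the means were 93.4 ± 5.62, 87.1 ± 5.46, 93.3 ± 8.94 and 78.9 ± 1.46 TPM (SD, n = 5 each). Adult samples held 57.0, 54.4, 54.9 and 57.0 TPM, below each juvenile mouse.

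Uhrf1 (ENSMUSG00000001228, chr17:56303321-56323486, plus strand) encodes the protein that recognises hemimethylated DNA and recruits DNMT1. Its values were 79.7, 66.4 and 80.9 TPM at 8 dpp and 102.62, 100.95, 109.27, 92.97 and 89.36 TPM at 18 dpp. All 5 of the older mice were above all 3 of the younger. Uhrf1 rose by a log2 fold change of 0.39 (SE 0.0852, adjusted p = 2.56e-04), against a median of -0.09 over all genes. Its means at the ages between, from 10 to 16 dpp, were 67.9 ± 4.19, 73.1 ± 6.39, 79.1 ± 8.78 and 84.4 ± 1.67 TPM (SD, n = 5 each). In the adult samples it held 112, 109, 114 and 111 TPM, a range that overlapped that of the 18 dpp mice.

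The levels of the 2 maintenance genes therefore changed order. Dnmt1 was the higher of the pair in every mouse of 8, 10, 12 and 14 dpp, and Uhrf1 in every mouse of 16 and 18 dpp and in every adult sample. The ratio of Uhrf1 to Dnmt1 TPM was 0.712 ± 0.0398 in the youngest mice (SD, n = 3) and then, age by age, 0.728 ± 0.0416, 0.84 ± 0.0441, 0.848 ± 0.0579, 1.07 ± 0.0198 and, in the oldest, 1.32 ± 0.131 (SD, n = 5 each). It was 1.99 ± 0.0572 in the adult samples (SD, n = 4). This ratio was chosen after the values were seen and was not tested.

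Of the de novo genes, Dnmt3a (ENSMUSG00000020661, chr12:3806007-3914443, plus strand), which sets most new methylation in male germ cells, held 73.7, 73.8 and 70.6 TPM at 8 dpp. At 18 dpp it held 34.1, 33.5, 30.5, 36.2 and 36.6 TPM. The groups were far apart, and Dnmt3a fell by 1.07 on the log2 scale (SE 0.0916, adjusted p = 6.96e-11). The 4 ages between had means of 74.3 ± 8.52, 65.9 ± 3.56, 61.9 ± 4.38 and 45.3 ± 6.03 TPM, youngest first (SD, n = 5 each). Adult samples held 0.68, 2.4, 1.17 and 2.19 TPM, a mean 21.2 times lower than at 18 dpp. The gene overlaps the antisense gene Dnmt3aos, and whether reads were counted by strand is not given in the sources used here.

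Dnmt3b (ENSMUSG00000027478, chr2:153649450-153687730, plus strand), the second de novo methyltransferase, held 41.3, 38.1 and 37.2 TPM at 8 dpp and 16.4, 14.7, 14.2, 20.6 and 20.1 TPM at 18 dpp. It fell by 1.15 on the log2 scale (SE 0.118, adjusted p = 2.37e-09), with no overlap between the ages. The means between were 39.1 ± 3.02, 30.5 ± 2.13, 30.9 ± 4.44 and 24.0 ± 3.18 TPM, youngest first (SD, n = 5 each). In adult samples the level was 2.08, 1.94, 1.9 and 2.51 TPM, and the 18 dpp mean was 8.15 times as high. An antisense gene, Dnmt3bos, overlaps it.

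Dnmt3l (ENSMUSG00000000730, chr10:78041947-78063622, plus strand), the cofactor without catalytic activity, was low at every age. It held 1.4, 1.26 and 0.82 TPM at 8 dpp, 0.91, 0.3, 0.67, 0.53 and 0.6 TPM at 18 dpp, and at most 2.89 TPM in any juvenile mouse. The 8 and 18 dpp ranges overlapped. As it was below the level set for testing, it entered only a fit without that filter, where the log2 fold change from 8 to 18 dpp was -0.43 (limma adjusted p = 0.231) and the F test over the ages gave an adjusted p of 0.0748. The adult samples held 1.38, 2.53, 2.13 and 2.45 TPM, each above every 18 dpp mouse, which makes Dnmt3l the only 1 of the 8 genes besides Uhrf1 with a higher mean in the adult samples than at 18 dpp. The Aire gene overlaps it on the other strand.

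Among the erasers, Tet3 (ENSMUSG00000034832, chr6:83362373-83459084, minus strand) was the most abundant dioxygenase at all 6 ages. Its values were 48.1, 49.2 and 46.6 TPM at 8 dpp and 15.6, 15.2, 12.9, 16.6 and 16.9 TPM at 18 dpp. The ranges lay far apart, and the fall of 1.58 on the log2 scale (SE 0.12, adjusted p = 6.66e-12) was the largest of the 7 genes on the log2(TPM + 1) scale. By the ratio of mean TPM, 8 over 18 dpp, Tet2 with 3.22 was ahead of Tet3 with 3.11. The 5 mice of 10 dpp spread from 40.6 to 66.3 TPM around a mean of 51.3 ± 10.2 TPM, more widely than at any other age, and the next 3 means were 32.6 ± 2.7, 32.5 ± 1.41 and 22.4 ± 3.47 TPM (SD, n = 5 each). Adult samples held 0.26, 0.23, 0.33 and 0.34 TPM, and the 18 dpp mean was 53.3 times as high as theirs.

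Tet2 (ENSMUSG00000040943, chr3:133463679-133545139, minus strand), which lacks the CXXC DNA-binding domain carried by full-length TET1, held 7.57, 7.41 and 6.91 TPM at 8 dpp and 2.02, 2.05, 1.9, 2.57 and 2.78 TPM at 18 dpp. It fell by 1.35 on the log2(TPM + 1) scale (SE 0.149, adjusted p = 7.76e-09), a scale that understates the change of low genes. From 10 to 16 dpp the means ran 7.99 ± 1.43, 5.03 ± 0.869, 5.31 ± 0.712 and 3.75 ± 0.643 TPM (SD, n = 5 each). The adult samples were at 0.12, 0.24, 0.23 and 0.15 TPM.

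Tet1 (ENSMUSG00000047146, chr10:62804570-62908996, minus strand), known for its part in meiotic gene activation in the female germ line, was the lowest of the erasers at each juvenile age. It held 4.8, 3.77 and 4.53 TPM at 8 dpp and 2.4, 1.11, 1.64, 1.52 and 2.81 TPM at 18 dpp. These groups did not overlap, and Tet1 fell by 0.92 on the log2(TPM + 1) scale (SE 0.2, adjusted p = 2.20e-04). At 10, 12 and 14 dpp the means were 5.04 ± 1.08, 3.8 ± 0.903 and 4.14 ± 1.09 TPM (SD, n = 5 each), and the 5 mice of 16 dpp all lay between 1.86 and 2.1 TPM. Tet1 was listed at 0 in 1 adult sample and at 0.05, 0.48 and 0.02 TPM in the others.

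The order of the 8 levels changed with age. At 8 dpp it ran Dnmt1, Uhrf1, Dnmt3a, Tet3, Dnmt3b, Tet2, Tet1 and Dnmt3l from high to low, and only Uhrf1 and Dnmt3a overlapped among neighbours. At 18 dpp it ran Uhrf1, Dnmt1, Dnmt3a, Dnmt3b, Tet3, Tet2, Tet1 and Dnmt3l, where Dnmt3b could not be separated from Tet3, nor Tet2 from Tet1. In adult spermatocytes, Uhrf1 and Dnmt1 were the only 2 of the 8 genes with at least 3 TPM in all 4 samples. Behind them came Dnmt3l, Dnmt3b and Dnmt3a, with means of 2.12, 2.11 and 1.61 TPM and overlapping neighbours, and then Tet3, Tet2 and Tet1, all at or below 0.48 TPM. The adult samples form a separate table, so they were set beside the mice without a test.

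The same 7 directions were found between 10 and 16 dpp, where both ages had 5 mice. Dnmt1 changed by -0.24 (SE 0.0589, adjusted p = 0.00126), Dnmt3a by -0.70 (SE 0.0793, adjusted p = 2.77e-08) and Dnmt3b by -0.69 (SE 0.102, adjusted p = 2.68e-06) on the log2 scale. Tet1 changed by -1.01 (SE 0.173, adjusted p = 1.99e-05), Tet2 by -0.92 (SE 0.129, adjusted p = 1.10e-06) and Tet3 by -1.15 (SE 0.104, adjusted p = 4.75e-10). Uhrf1 was again the 1 gene that rose, by 0.31 (SE 0.0738, adjusted p = 8.77e-04). In this comparison 51.6% of all genes were called, 23.9% lower and 27.7% higher, and the ranges of both ages were apart for all 7 genes and for 39.6% of all genes. The Sertoli marker sum lay between 6490 and 7260 TPM at 10 dpp and between 5040 and 6890 TPM at 16 dpp, and Clu made up most of it at both ages (4520 ± 631 TPM at 16 dpp, SD, n = 5). The other markers moved apart under that sum, with lower means at 16 dpp for Wt1 (384 ± 49.2 and 176 ± 26.8 TPM), Amh (336 ± 55.1 and 103 ± 14.7), Gata4 (221 ± 12.6 and 101 ± 17.1) and Sox9 (94.7 ± 7.23 and 59.7 ± 9.44). Means were higher at 16 dpp for Gata1 (50.4 ± 3.38 and 98.9 ± 6.63 TPM), Rhox5 (41.0 ± 10.1 and 80.4 ± 16.0) and Amhr2 (502 ± 21.0 and 581 ± 52.4) (SD, n = 5 each), and the part of Sertoli cells in the members' changes was not tested.

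The changes were not spread evenly over the 5 steps of 2 days. From 8 to 10 dpp none of the 7 genes passed the limma test (1 at an unadjusted p under 0.05, Dnmt1 with a log2 fold change of -0.18), nor did any from 12 to 14 dpp (0 at an unadjusted p under 0.05). These were also the steps with few calls in all, 1.2% and 0.172% of genes (0.977% and 0.157% higher, 0.226% and 0.0147% lower). From 10 to 12 dpp, Dnmt3b fell by 0.35, Tet2 by 0.57 and Tet3 by 0.62 on the log2 scale (adjusted p = 0.015, 0.00184 and 7.94e-05), while 21.4% of all genes were called, 9.39% lower and 12.0% higher. Without mouse 1 of 10 dpp, which had the highest Dnmt3b, Tet2 and Tet3 of its age, the Dnmt3b call was lost (adjusted p = 0.0504).

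Between 14 and 16 dpp, 6 genes fell, against 11.3% of all genes lower, 12.7% higher and 24.0% called in either direction: Dnmt1 by 0.23, Dnmt3a by 0.45, Dnmt3b by 0.35, Tet1 by 0.77, Tet2 by 0.41 and Tet3 by 0.53 on the log2 scale (adjusted p between 1.24e-04 and 0.0201). Pachytene marker sums went from between 175 and 299 TPM to between 995 and 2080 TPM over the same step. Dnmt3b lost its call without mouse 5 of 14 dpp (adjusted p = 0.0503) or mouse 1 of 16 dpp (adjusted p = 0.051), and Tet2 without either of these mice (adjusted p = 0.0593 and 0.0595) or without mouse 2 of 16 dpp (adjusted p = 0.0553). From 16 to 18 dpp, where 54.0% of all genes were called, 30.6% lower and 23.4% higher, Dnmt3a fell by 0.39, Dnmt3b by 0.47, Tet2 by 0.54 and Tet3 by 0.50, and Uhrf1 rose by 0.23 (adjusted p = 0.0121). Dnmt1 with -0.07 and Tet1 with -0.07 did not pass in that step. Under quantile normalization the Uhrf1 step was 0.13 (adjusted p = 0.0794), and Dnmt1 was called lower with -0.14 (adjusted p = 0.0333).

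**Figure D2:**
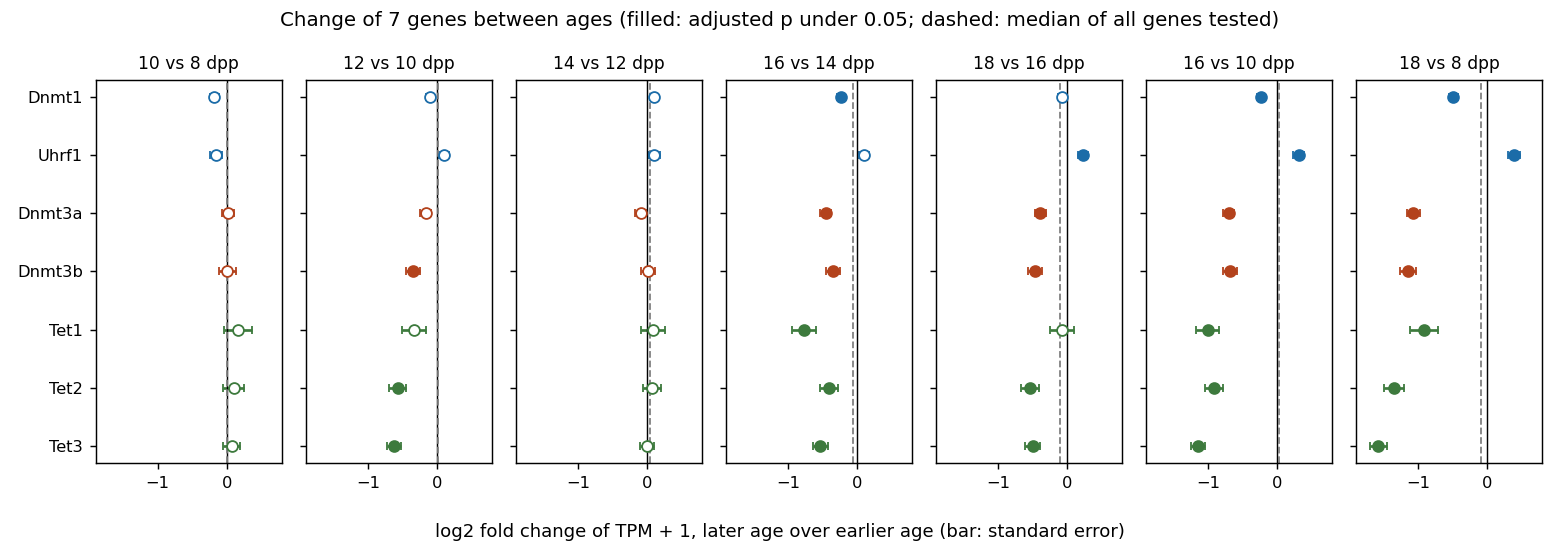
Log2 fold change of TPM + 1, later over earlier age, of 7 genes for 5 steps of 2 days and 2 wider age pairs; bars are standard errors, filled points passed limma at an adjusted p under 0.05, and the dashed line is the median of all genes tested. No point is filled for 10 against 8 or 14 against 12 dpp, and Uhrf1 is the only gene right of 0 in both wider pairs.

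Scaling moved all genes together to some degree. The median log2 fold change over all genes from 8 to 18 dpp was -0.09 as deposited, 0.05 with median-of-ratios factors and -0.26 after quantile normalization. The split of calls over all genes moved with it, from 6487 higher and 7402 lower to 7589 and 5991 with the factors and 5532 and 9148 after quantile normalization. From 16 to 18 dpp it moved from 4775 higher and 6227 lower to 6193 and 3630 and to 4531 and 7462, from 14 to 16 dpp from 2594 and 2296 to 2860 and 1454 and to 2407 and 3375, and from 10 to 16 dpp from 5638 and 4874 to 5727 and 4863 and to 4534 and 6500. Uhrf1 was at 0.56 and 0.29 under these, above the median of all genes each time, and the other 6 genes stayed below 0 with adjusted p under 0.05.

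Within each mouse, the make-up of a family does not depend on the scaling of the library. Of the summed TPM of Dnmt1, Dnmt3a, Dnmt3b and Dnmt3l, the Dnmt1 share was 48.5 ± 1.9% in the youngest mice (SD, n = 3), 59.2 ± 2.44% in the oldest (SD, n = 5) and 90.6 ± 2.15% in the adult samples (SD, n = 4). All 5 mice of 18 dpp were above the 3 of 8 dpp. The difference of 10.8 points gave a two-sided exact permutation p of 0.0357, the smallest that 3 against 5 mice allow, and 0.0833 after adjustment over 14 shares. From 10 to 16 dpp the Dnmt1 share differed by 8.04 points (exact permutation p = 0.00794, the smallest possible with 5 against 5; adjusted p = 0.0741). Dnmt3a's share was 6.4 points lower at 18 than at 8 dpp and Dnmt3b's 4.31 points lower (exact permutation p = 0.0357 and adjusted p = 0.0833 for each). None of the 14 share tests passed the adjusted threshold, and 6 had an unadjusted p under 0.05.

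In the Tet family no share passed the test, while the summed TPM was 59.6 ± 1.38 in the youngest mice (SD, n = 3) against 19.6 ± 2.28 in the oldest (SD, n = 5). Tet3 held 80.4 ± 0.976% of the sum at 8 dpp and 78.9 ± 2.86% at 18 dpp, a difference of -1.53 points (exact permutation p = 0.429). Tet1 held 7.33 ± 0.941% and 9.57 ± 2.84%, and Tet2 12.2 ± 0.307% and 11.5 ± 0.962%. In adult samples the family sum was 0.613 ± 0.292 TPM (SD, n = 4), too low for its shares to be compared.

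**Figure D3:**
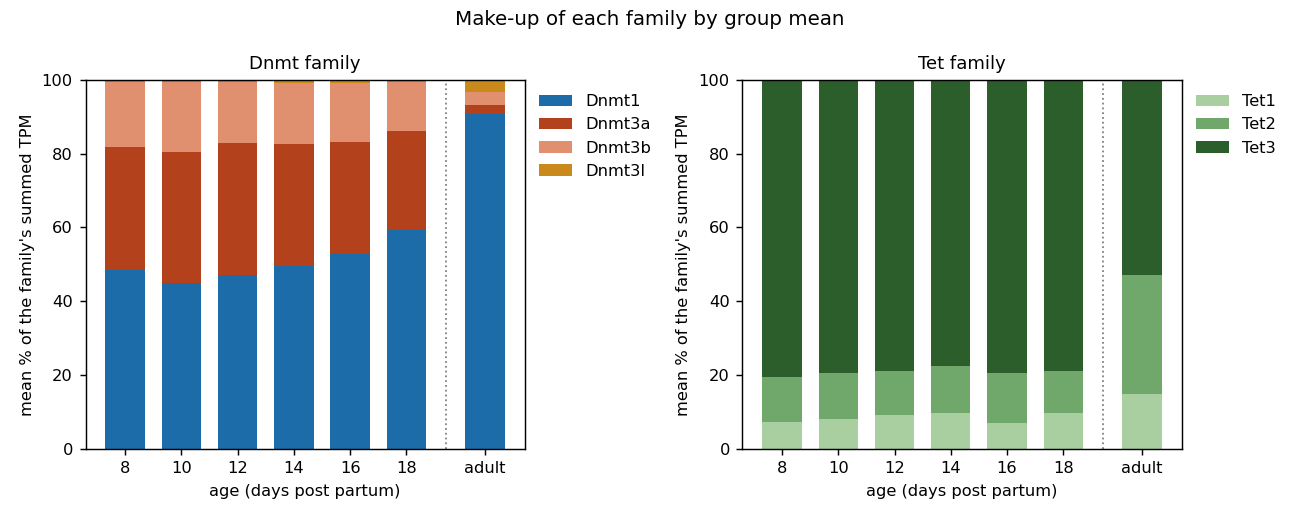
Stacked bars of the mean percentage that each gene takes of its family's summed TPM, by age in days post partum and in adult enriched spermatocytes. The mean Dnmt1 share is 48.5% at 8 dpp, 44.9% at 10 dpp, 59.2% at 18 dpp and 90.6% in adult samples, its differences from 8 to 18 dpp and from 10 to 16 dpp did not pass after adjustment, and the mean Tet3 share lies between 77.5% and 80.4% over the juvenile ages.

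Transcripts of 1 gene can start at different first exons, and for Dnmt1 alternative first exons have been described for oocytes, somatic cells and pachytene spermatocytes. All 3 Dnmt1 transcripts of the table are coding and differ at their start. Dnmt1-201 (ENSMUST00000004202) has its first exon at chr9:20952708-20952979 and encodes 1620 residues in the annotation. Dnmt1-202 (ENSMUST00000177754) starts 6909 bases upstream, with the first exon chr9:20959733-20959888, and Dnmt1-203 (ENSMUST00000178110) starts 356 bases downstream of Dnmt1-201, in its first intron, with the first exon chr9:20951846-20952623. Both of the latter encode 1501 residues in the annotation, and the protein made from each of the 3 transcripts was not measured. The bases that no other Dnmt1 transcript shares number 275 of 5367 in Dnmt1-201, 156 of 5248 in Dnmt1-202 and 778 of 5870 in Dnmt1-203, so the authors' estimates for each rest on reads over these stretches.

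The promoter windows of the 3 starts are shown because the transcript from the third changed with age. Each runs from 250 bases before to 50 bases after the start, taken from RefSeq on GRCm38.p6, minus strand, and CpG sites, the substrate of the enzyme encoded, are in capitals. The windows are chr9:20959839-20960138 for Dnmt1-202, chr9:20952930-20953229 for Dnmt1-201 and chr9:20952574-20952873 for Dnmt1-203.
Dnmt1-202: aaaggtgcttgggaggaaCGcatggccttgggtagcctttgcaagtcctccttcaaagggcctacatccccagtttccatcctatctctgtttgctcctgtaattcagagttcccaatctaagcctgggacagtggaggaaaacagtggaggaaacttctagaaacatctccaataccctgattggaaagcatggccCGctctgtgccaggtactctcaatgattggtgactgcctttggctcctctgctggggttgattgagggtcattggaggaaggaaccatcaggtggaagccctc
Dnmt1-201: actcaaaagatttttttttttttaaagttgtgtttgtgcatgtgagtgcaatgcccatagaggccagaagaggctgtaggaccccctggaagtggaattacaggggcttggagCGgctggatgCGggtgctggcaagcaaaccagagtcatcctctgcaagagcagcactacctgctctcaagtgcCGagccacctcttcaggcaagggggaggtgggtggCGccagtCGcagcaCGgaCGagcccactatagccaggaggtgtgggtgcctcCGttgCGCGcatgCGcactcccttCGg
Dnmt1-203: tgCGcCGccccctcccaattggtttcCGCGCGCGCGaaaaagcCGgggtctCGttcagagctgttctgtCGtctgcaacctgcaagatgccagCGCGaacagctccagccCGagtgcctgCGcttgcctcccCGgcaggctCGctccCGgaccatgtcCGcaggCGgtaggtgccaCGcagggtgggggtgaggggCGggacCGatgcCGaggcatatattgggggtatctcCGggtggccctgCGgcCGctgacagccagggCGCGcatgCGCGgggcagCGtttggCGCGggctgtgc

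The 3 windows differ in CpG number. The Dnmt1-202 window holds 2 CpG sites, that of Dnmt1-201 holds 12 and that of Dnmt1-203 holds 33, against a median of 7 and an upper quartile of 20 over 32817 promoter windows of this length. Of the Dnmt1-203 window, 166 bases lie in the first exon of Dnmt1-201. The E2F words TTTCCCGC, TTTCGCGC, TTTGCCGC and TTTGGCGC, searched on both strands, occur 2 times in the Dnmt1-203 window and in neither of the other 2, while 2.26% of all windows hold 1 or more. Another such word occurs in the window at chr17:56304063-56304362, the start of Uhrf1-202, and in no other window among the 15 of these 8 genes. Each E2F word holds a CpG and the Dnmt1-203 window is rich in CpG sites, so the 2.26% is not a background matched to it. The word CCAAT, searched as well, occurs 5 times in the Dnmt1-202 window, 0 times in that of Dnmt1-201 and 2 times in that of Dnmt1-203. Of all windows, 37.4% hold it. Such matches describe letters, not binding.

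Dnmt1-203 was low up to 14 dpp and higher at 16 and 18 dpp. It held 1.58, 1.74 and 0.6 TPM in the mice of 8 dpp and at most 4.08 TPM in any mouse of 10, 12 or 14 dpp. At 16 dpp it held 11.1, 6.73, 3.98, 7.04 and 8.97 TPM, and at 18 dpp 17.3, 20.2, 15.5, 9.82 and 11.2 TPM. No mouse of 18 dpp was as low as the highest at 14 dpp. Its share of Dnmt1 went from 1.25 ± 0.631% (SD, n = 3) to 19.7 ± 5.77% (SD, n = 5) between 8 and 18 dpp, a rise of 18.4 points (SE 2.16, limma adjusted p = 1.55e-06), and 4.49% of the 23667 transcripts tested were called higher in this comparison, at an adjusted p under 0.05 and a gain of at least 10 points. Over these ages, the gene as a whole fell.

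Dnmt1-201, the transcript with the longest protein, was the main form at every age, with 67.0 ± 9.94 TPM in the youngest mice (SD, n = 3) against 36.1 ± 7.7 TPM in the oldest (SD, n = 5). Its share fell by 15 points (SE 4.72, adjusted p = 0.0363), but the call was lost when 1 of 6 mice (mouse 2 or 3 of 8 dpp, mouse 1, 2, 3 or 5 of 18 dpp) was left out, with shares then lower by 11.2 to 15.4 points. It was also lost with only these ages in the fit (adjusted p = 0.226) and with transcripts of any level tested (adjusted p = 0.0539). Dnmt1-202 went from 37.8 ± 6.87 TPM to 24.4 ± 5.29 TPM, a share change of -3.45 points that did not pass (SE 3.56, adjusted p = 0.622). From 10 to 16 dpp the Dnmt1-203 share was 8.36 points higher (SE 1.87, adjusted p = 0.00765), below the 10 points set for a call. None of the tested transcripts, which were those of Dnmt1, Dnmt3a, Dnmt3b and Uhrf1, reached a call in that pair, where 2.93% of 23848 transcripts did, 1.59% higher and 1.34% lower.

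**Figure D4:**
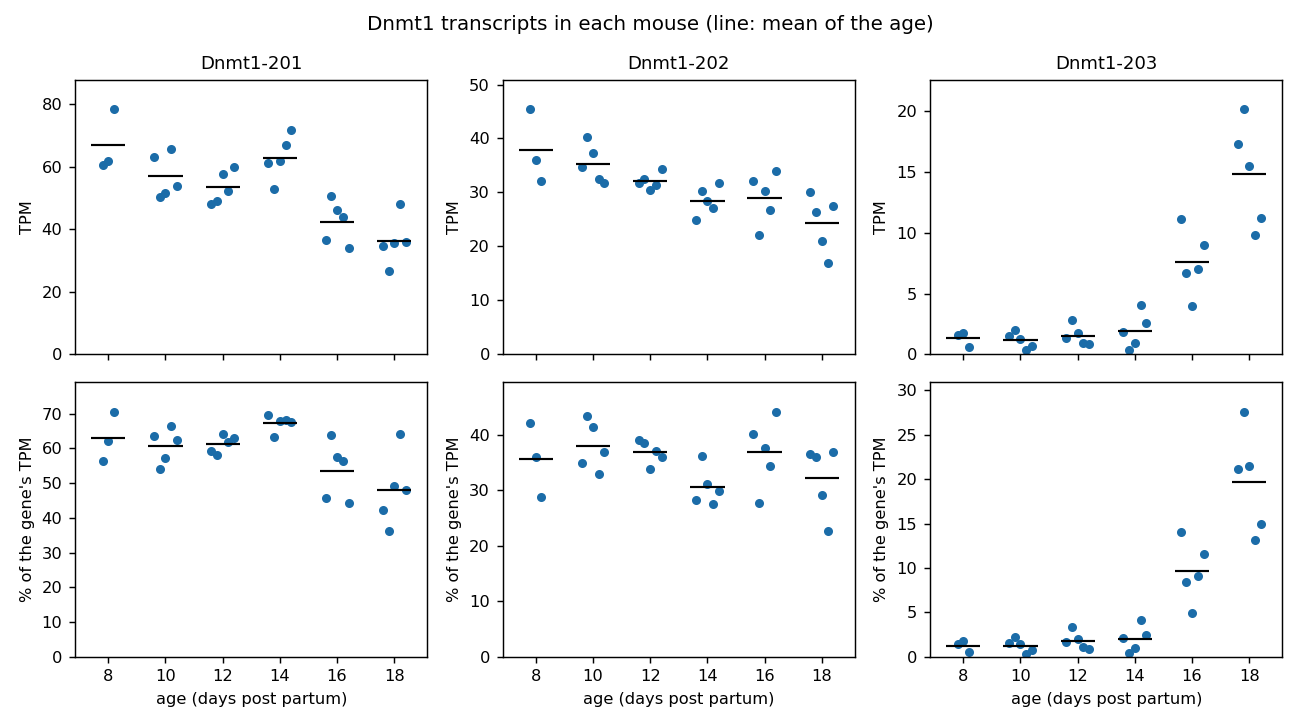
TPM (top) and percentage of the gene's TPM (bottom) of the 3 Dnmt1 transcripts in each mouse by age in days post partum; lines are means, and each panel has its own axis from 0. Dnmt1-203 stays at or below 4.08 TPM up to 14 dpp and reaches 9.82 to 20.2 TPM at 18 dpp.

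For Dnmt3a, 4 of 18 transcripts had a mean of at least 1 TPM. Dnmt3a-218 (ENSMUST00000174817) and Dnmt3a-201 (ENSMUST00000020991) both encode the full-length form of 908 residues and start at chr12:3807160-3807254 and chr12:3807030-3807120. Dnmt3a-205 (ENSMUST00000172689), from the internal first exon chr12:3891728-3891860, encodes 689 residues and corresponds to the short form known as DNMT3A2. Dnmt3a-218 fell from 42.4 ± 1.05% to 23.6 ± 3.36% of the gene, by 18.8 points (SE 2.77, adjusted p = 3.61e-05), while Dnmt3a-201 rose from 14.7 ± 1.94% to 29.2 ± 4.36%, by 14.5 points (SE 3.13, adjusted p = 0.00227). Both starts lie upstream of that of the short form. Bases in no other Dnmt3a transcript number 95 of 8737 in Dnmt3a-218, 28 of 9685 in Dnmt3a-201 and 16 of 2328 in Dnmt3a-205. Set against only the 4 forms of at least 1 TPM, Dnmt3a-201 holds 1043 such bases. Dnmt3a-205 held 34.7 ± 2.41% in the youngest mice (SD, n = 3) against 40.1 ± 5.26% in the oldest (SD, n = 5), a change of 5.42 points that did not pass (SE 3.33, adjusted p = 0.348).

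In Dnmt3b, 5 transcripts of 776 to 860 residues passed the level of 1 TPM. Each shares nearly all of its bases with at least 1 other of the 5, and at most 3 bases are unique to any 1 of them. Their estimates varied widely between mice, such as from 4.44 to 14.7 TPM for Dnmt3b-209 at 8 dpp. None of the 5 passed the share test, although Dnmt3b-201 differed by 13.3 points (adjusted p = 0.12) and Dnmt3b-203 by -15.1 points (adjusted p = 0.0861). Tet2 and Tet3 each had 1 transcript at this level, Tet2-201 of 1912 residues and Tet3-202 of 1668 residues, and Tet1-206 of 2039 residues was the only such form of Tet1. Dnmt3l had none.

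Uhrf1 starts at a pair of first exons. Uhrf1-201 (ENSMUST00000001258), from the upstream exon chr17:56303321-56303561, fell from 21.1 ± 5.38% to 9.23 ± 3.05% of the gene, by 11.8 points (SE 3.79, adjusted p = 0.0388). Leaving out mouse 2 or 3 of 8 dpp or mouse 1, 2 or 3 of 18 dpp ended that call, with falls then of 8.8 to 13.0 points. Uhrf1-204, from the downstream exon chr17:56304348-56304393, held 51.8 ± 9.52% at 8 dpp and 65.1 ± 4.25% at 18 dpp, a change of 13.3 points (SE 5.57, adjusted p = 0.128) that did not pass. Only 79 bases are unique to Uhrf1-201 and none to Uhrf1-204. Only transcripts of Dnmt1 (3), Dnmt3a (4), Dnmt3b (5) and Uhrf1 (5) entered the share test, and those of Dnmt3l and the Tet genes did not. Of those tested, 2 were called higher and 3 lower in share between 8 and 18 dpp, while 8.45% of all transcripts tested were called, 4.49% higher and 3.97% lower.

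Genes with the pattern nearest to each of the 7 were found by the smallest root mean square difference of centred log2(TPM + 1) over the 28 mice, among 12947 genes. For Dnmt1 these were Heatr1, Poldip3 and Mcm3ap, with differences of 0.06 to 0.07. Uhrf1 was nearest to Ptpa, Abcf2 and Psmd2 (0.08 to 0.09), Dnmt3a to Acly, Celf2 and Ctnnal1 (0.09 to 0.1), and Dnmt3b to Dmrt1, Sipa1l1 and Kif1c (0.1 to 0.11). Tet2 was nearest to Zfp266, Setd7 and Lats2 (0.12 to 0.14), and Tet3 to Cmtm4, Ptprf and Arhgap21 (0.11 each). Tet1 had no close neighbour by comparison, since Lpp, Tril and Zc3hav1l differed by 0.24 each. These points share libraries and ages, and the likeness is a description.

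The genes that work with these enzymes were read from 6 lists of names. Of 8 partners of DNMT1 and UHRF1, 5 were lower and 2 higher at 18 than at 8 dpp, with a median log2 fold change of -0.32 against -0.09 over all genes. Of all genes, 36.3% were lower and 31.8% higher in this comparison, and 23.9% and 27.7% from 10 to 16 dpp, and these shares are the background of each list that follows. That background includes the non-coding RNA genes, so it is not matched to lists of protein-coding genes. The partners' median was -0.15 with median-of-ratios factors, where 4 were lower and Usp7 lost its call, and -0.41 with quantile normalization, where 6 were lower. Between 10 and 16 dpp 4 partners were lower and 2 higher, with a median of -0.17 against 0.02. Cdca7, an activator of the remodeller HELLS, fell by 1.08 on the log2 scale. Its paralog Cdca7l fell by 0.80 and the replicative ligase Lig1 by 0.57. Dmap1, a DNMT1-binding protein, rose by 0.55 (58.2 ± 1.85 to 85.6 ± 3.54 TPM) and the clamp Pcna by 0.51 (172 ± 14.4 to 245 ± 5.66 TPM). Hells itself fell by 0.40, and Uhrf2, the paralog of Uhrf1, had a change of -0.19 that did not pass (adjusted p = 0.153), and of -0.28 that did under quantile normalization (adjusted p = 0.0287).

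Of 14 genes listed under de novo methylation in the male germ line, 7 were lower and 4 higher, with a median of -0.38. The list is broader than its heading, as Kdm1b is known from imprints of oocytes and Zfp57 and Trim28 from imprints of embryos. Its split therefore does not describe the male pathway alone. Only some of the 14, such as Piwil4, belong to the branch that guides methylation to transposons through small RNAs. The scaling moved this split to 6 and 5 (median -0.22) with median-of-ratios factors and 9 and 4 (median -0.53) with quantile normalization. Piwil4, the nuclear PIWI protein of fetal germ cells, fell by 1.16 to 2.55 ± 0.817 TPM (SD, n = 5). Morc1 fell by 0.97 and the demethylase Kdm1b by 0.63. In the other direction, Mael rose by 2.08 (161 ± 15.3 to 702 ± 174 TPM), Piwil2 by 0.94 and the helicase gene Mov10l1 by 0.89. Mael and Piwil2 also act in the piRNA pathway of spermatocytes. From 10 to 16 dpp the list had 3 lower and 4 higher genes and a median of 0.09 against 0.02.

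Among 7 readers of methylated CpG, 4 were lower and 2 higher, with a median of -0.41. Zbtb33 fell by 1.04, Zbtb38 by 0.66 and Zbtb4 by 0.49, the last with its call lost under median-of-ratios factors (-0.33, adjusted p = 0.058). The 2 higher genes were Mbd3, which unlike other MBD proteins binds methylated DNA poorly in mammals, with a rise of 0.72 (to 168 ± 9.98 TPM at 18 dpp), and Mbd1 with 0.22, whose call was lost under quantile normalization (0.14, adjusted p = 0.083), which gave 5 lower and 1 higher reader. At 16 against 10 dpp 3 readers were lower and 1 higher, with a median of -0.13.

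Of 17 genes for demethylation and base excision, 13 were lower and 2 higher, with a median of -0.79 from 8 to 18 dpp, and 8 were lower and 3 higher with a median of -0.27 from 10 to 16 dpp, against 36.3% lower and 31.8% higher, and 23.9% and 27.7%, of all genes. Median-of-ratios factors gave 11 lower and 3 higher from 8 to 18 dpp (median -0.71) and quantile normalization 14 and 2 (median -1.16). Cxxc5, a CXXC protein that binds TET2, had the largest fall, by 2.82 (89.0 ± 0.907 to 11.8 ± 1.76 TPM). Gadd45a fell by 1.53 and Ogt, a partner of TET proteins, by 1.34. Tdg, the glycosylase that removes the oxidised bases made by TET enzymes, fell by 1.13 from 68.0 ± 2.04 to 30.6 ± 3.87 TPM. The 2 genes that rose were Lig3, by 1.17, and its scaffold partner Xrcc1, by 0.91, which reached 196 ± 6.28 and 141 ± 3.2 TPM in adult samples (SD, n = 4).

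Supply of the methyl donor S-adenosylmethionine was read from 6 genes together with Trdmt1, a tRNA methyltransferase related to the DNMT family. In this list of 7, 3 were lower and 1 higher, with a median of -0.02. Mat2b fell by 1.2, Ahcy, which clears the inhibitor S-adenosylhomocysteine, by 0.72 and Mtr by 0.25. Trdmt1 rose by 0.39 (11.7 ± 1.34 to 15.8 ± 3.08 TPM), and Mat2a, the synthase subunit, was at 240 ± 3.44 and 237 ± 19.9 TPM (adjusted p = 0.813). This list turned with the scaling, with 2 lower and 3 higher under median-of-ratios factors, where Mtr lost its call, and 3 lower and 0 higher under quantile normalization, where Trdmt1 lost its call. In the 16 against 10 dpp comparison 4 were lower and 1 higher, with a median of -0.23, and Mat2a was called lower there (-0.41, adjusted p = 3.92e-05).

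DNMT1 and UHRF1 are made in dividing cells, so 12 genes of replication and proliferation were read beside them. Of these, 7 were lower and 2 higher at 18 than at 8 dpp, with a median of -0.36. Tyms fell by 1.13, Mcm2 by 1.11 and Mcm6 by 0.74, while Top2a rose by 0.33 and Mcm7 by 0.32. Mki67 was at 38.9 ± 4.0 and 35.0 ± 1.55 TPM with no call (adjusted p = 0.247), although under quantile normalization it was lower by a log2 fold change of -0.22 (adjusted p = 0.0478). That scaling gave 10 lower and 2 higher genes in this list, and median-of-ratios factors gave 6 and 2. Between 10 and 16 dpp 5 of them were lower and 2 higher, with a median of -0.09. In the adult samples the 12 genes ranged from 0.45 ± 0.159 TPM for Tyms and 1.33 ± 0.239 TPM for Mcm2 to 140.0 ± 5.36 TPM for Mcm7 and 155 ± 3.67 TPM for Top2a (SD, n = 4), beside 55.8 ± 1.41 TPM of Dnmt1 and 111 ± 2.19 TPM of Uhrf1.

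**Figure D5:**
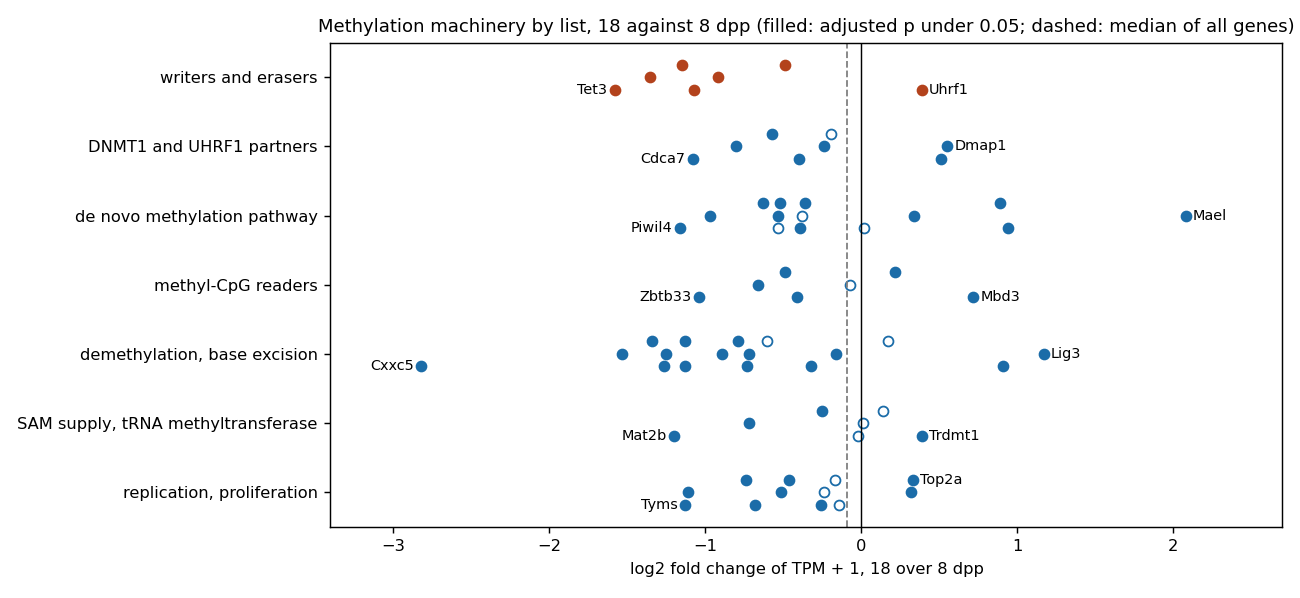
Log2 fold change of TPM + 1 from 8 to 18 dpp for the 7 tested writers and erasers (red) and for 6 lists of related genes (blue), 1 point per gene; filled points passed limma at an adjusted p under 0.05, the dashed line is the median of all genes at -0.09, and the lowest and highest gene of each list are named. The list of demethylation and base excision lies mostly left of 0, from Cxxc5 at -2.82 to Lig3 at 1.17.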

How the data were processed

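RNA-seq values of 28 juvenile mice and 4 adult samples were used as deposited. The authors made poly-A libraries, and per the labels Bowtie 1.0.0 and RSEM 1.2.8 were used with the mm10 build. The deposited juvenile transcript table and adult gene table hold TPM, made by the authors with RSEM. The deposited juvenile gene table holds a score, the natural exponential of log2(TPM + 1) minus 1, which was turned back into TPM, and 20288 of its 20368 genes then lay within 0.2 TPM of the summed transcripts in each mouse. Dnmt3a was among the 80 others, with a largest difference of 0.51 TPM. The mice labelled 4 and 5 at 14 dpp were matched to their columns by description.

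Age differences were tested in limma 3.58.1 (R 4.3.3) on log2(TPM + 1), with a prior variance that follows the mean and Benjamini-Hochberg adjustment over all genes, after a check on simulated data. Transcript shares (percent of the gene's TPM) were tested with limma for transcripts averaging 1 TPM or more whose gene averaged 3 TPM or more and had 2 or more such transcripts, and a call needed a change of 10 points. Family shares were tested with two-sided exact permutation tests (scipy 1.17.1). The 3 largest rises and falls that passed were named per list, and the 3 nearest genes per member; Hells, Uhrf2, Tdg, Mat2a and Mki67 were added after their values were seen. A gene in each of 2 lists is not reported here. The members and lists were chosen with earlier results of these data known. Gene positions are from GENCODE M21. Each juvenile sample was 1 mouse, and each adult sample 1 pool. The alternatives tried were other pseudocounts, filters, scalings and priors, only 2 ages, mice 1 to 3, a replicate block and leaving out each sample.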

Additional observations from a re-analysis of the deposited data

Results flagged for a closer look

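Of 73 groups of 4 or 5 samples checked, 5 held a sample far from its nearest neighbour, and chance gives about 1 in 20 such groups. Dnmt1 was at 82.06 TPM in mouse 1 of 18 dpp, with the next mouse at 74.84 TPM. Dnmt3b was at 29.48 TPM in mouse 3 of 16 dpp, against 23.63 TPM in the next. Tet1 was at 0.48 TPM in adult sample 3, where the next highest held 0.05 TPM. The transcript Uhrf1-201 was low in mouse 4 at 10 dpp, with 10.02 TPM against 13.52 TPM in the next, and in mouse 4 at 12 dpp, with 5.71 TPM against 18.28 TPM.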

How the results depend on the processing

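The directions and calls of all 7 tested genes from 8 to 18 dpp and from 10 to 16 dpp held in each of 40 alternatives. In the first pair Uhrf1 ran from 0.29 to 0.56 (highest adjusted p = 0.007) and Dnmt1 from -0.57 to -0.31 (highest adjusted p = 0.00032). With mice 1 to 3 only, 3 genes were lower at 16 than at 14 dpp, as Dnmt1, Dnmt3b and Tet1 lost their calls, and under quantile normalization 0 were higher at 18 than at 16 dpp. Leaving out 1 sample gave 4 to 6 lower genes at 16 than at 14 dpp and 2 to 3 at 12 than at 10 dpp. A minimum of 20 points left 0 transcripts with a higher and 0 with a lower share at 18 than at 8 dpp, and testing transcripts of any level left 1 lower. Leaving out 1 sample gave 1 to 3 lower and 2 to 3 higher there, and 0 to 1 lower from 10 to 16 dpp. With no minimum change, 1 transcript was higher (Dnmt1-203) and 1 lower (Dnmt3a-218) in that pair. Dnmt1-203, Dnmt3a-201 and Dnmt3a-218 kept their calls from 8 to 18 dpp in all 32 alternatives of the fit.

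Among the family shares from 10 to 16 dpp, with mice 1 to 3 only the Tet1 share differed by 0.241 points and the Tet2 share by -0.607 points, opposite to all mice, and without 1 sample Dnmt3l ran from -0.221 to 0.188 and Tet3 from -0.847 to 1.02 points. None of these passed a test, and 3 against 3 mice cannot reach an unadjusted p under 0.05. The cause of these changes was not tested.

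Mouse numbers are shared across ages, but same-numbered mice of different ages did not deviate together (median correlation 0.0137 over 65 pairs, 3 over 0.1). With a replicate block, 6 genes were lower and 1 higher at 18 than at 8 dpp, and 3 transcripts had a higher and 2 a lower share, since Dnmt3b-201 was gained and Uhrf1-201 was lost (-10.6 points, adjusted p = 0.0697). The block changed no gene call in either of the 2 wider age pairs.

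Over all genes, 245 were called at 10 against 8 dpp, between 106 and 305 over the alternatives (129 with only these ages, 158 with the block), and 35 at 14 against 12 dpp, between 1 and 129. Over all transcripts, a minimum of 20 points left 937 of 2001 calls from 8 to 18 dpp and 263 of 699 from 10 to 16 dpp, and no minimum gave 3137 and 1143. The scaling of the pathway lists was tried after the data were seen.

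TPM holds no read counts, so low levels such as those of Dnmt3l and adult Tet1 have a counting error that is unknown here.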
